A study of Mus musculus with 12 samples.

Results

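The genes described here encode the channels that carry sodium, potassium and calcium across the neuronal membrane, with their accessory subunits. They were chosen by gene symbol, with earlier results of these data known. Rows of the count table were taken whose symbol begins with Scn, Kcn, Cacn or Hcn in the form that these channel families use. They also needed at least 10 counts over all libraries. Of 43280 rows in the table, 135 had such a symbol and 117 of these had enough counts. The hypothalamus of 12 male C57/Bl6 pups was collected at P6 (postnatal day 6) and each gave 1 library. Control pups (n = 6) did not undergo the procedure. Pups of the other group (n = 6) underwent modified maternal separation (MMS), in which pups were kept warm outside the nest for part of the day over several days running and were turned onto their backs whenever they righted themselves. Their tissue was taken directly after the last session, so the values describe a whole young hypothalamus shortly after a stressor, with all its cell types together. The question was whether transcripts of the channels differed between these groups.

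Voltage-gated channels open when the membrane potential changes. Sodium channels carry the rising phase of the action potential, voltage-gated potassium channels end it and set the interval to the next spike, and voltage-gated calcium channels turn depolarisation into transmitter release and into signals to the nucleus. HCN channels open on hyperpolarisation and give a depolarising current that supports rhythmic firing. Each pore-forming subunit is assembled with accessory subunits that alter its gating and its traffic to the membrane. The symbols also took in channels that are not gated by voltage. Kcnj genes encode inward rectifiers, Kcnk genes encode two-pore leak channels, and Kcnn genes encode channels opened by calcium alone. Scn7a encodes a sodium channel relative that senses extracellular sodium, and most Cacng genes encode TARPs, auxiliary subunits that move and gate AMPA-type glutamate receptors. By the name of the family the 117 genes fell into 12 subunit classes, of which voltage-gated potassium pore subunits, with 35 genes, were the most numerous.

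Library totals ran from 3218777 to 6560620 counts, and the 117 genes took between 0.416% and 0.498% of a library. The libraries were made from the 3' end of the transcript, where a molecule gives about the same number of reads whatever its length, so levels of different genes were compared as CPM (counts scaled to a common library total, with TMM factors) without division by length. Male littermates were divided between the groups, and nothing in the labels ties a library to a litter. The p-values therefore measure the spread between these libraries and treat pups as independent. Marker genes, read with earlier results of these data known, set MMS 2 and MMS 4 apart. Their 10 neuronal markers summed to 7165 and 7239 CPM, against 8194 to 9437 in the other MMS libraries and 8446 to 9513 in controls. Between the groups, 6 of the 10 had a positive log2 fold change and 4 a negative one (median 0.03). The low sum need not hold for each marker. Ependymal cilia markers summed to 14.5 and 30.5 CPM, against 67.7 to 159 in the other MMS libraries and 68.0 to 163 in controls. Control 3 held 1806 summed CPM of choroid plexus markers, where all the others held 22.9 to 56.8. The hypothalamic markers summed to between 736 and 1639 CPM, those of the telencephalon to between 32.4 and 73.6 CPM, and those of the pituitary to between 0 CPM in MMS 4 and 41.2 CPM in MMS 3, with 23.6 CPM in Control 6 and 1 of the 6 markers, Pou1f1, at 0 in every library. In tissue of mixed cells, fewer cells of a type and less RNA per cell cannot be told apart.

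Of the 117 genes, 91 had enough counts for the test. Their control means ran from 2.34 CPM for Scn7a to 248 CPM for Scn3b. None of the 91 passed the test between the groups after adjustment over all genes. The smallest adjusted p in edgeR was 0.415, for Cacng7, and 0 of the 13104 genes tested (0%) passed an adjusted p of 0.05. Fits with DESeq2 and limma-voom also placed 0 of the 91 past it, with a smallest adjusted p of 0.069 for Cacng7 in DESeq2. Of all genes tested, 7 of 13103 passed it in DESeq2 and 0 of 13104 in limma-voom.

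At an unadjusted p under 0.05 in edgeR there were 13 of the 91 genes (14.3%), against 9.08% of all genes tested. Of these, 6 were higher in MMS (6.59%, where the share of all genes was 4.68%) and 7 were lower (7.69%, where the share was 4.40%). DESeq2 and limma-voom each gave 14 (15.4%), where the shares of all genes were 9.88% and 9.97%. The genes higher in MMS included Cacnb2, Kcnb2, Kcnd1, Cacna1c and Kcnc1, and those lower included Cacng7, Kcnk2, Cacna1e, Kcnh3, Kcnk12 and Kcnab2. By the sign of the fitted log2 fold change, which higher and lower also mean for the subunit classes, 49 genes were higher and 42 lower. The median log2 fold change was 0.01, beside 0.0009 over all genes, and the range was from -0.94 (Kcnh3) to 0.67 (Kcnn2, whose value was -0.08 without MMS 2 and MMS 4). The median size of the log2 fold change regardless of sign was 0.20 for the channels and 0.15 for all genes, with a median SE of 0.18 and 0.17. Without MMS 2 and MMS 4 the 13 became 6 of 92 (all genes 5.03%), with 2 higher and 4 lower.

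**Figure D1:**
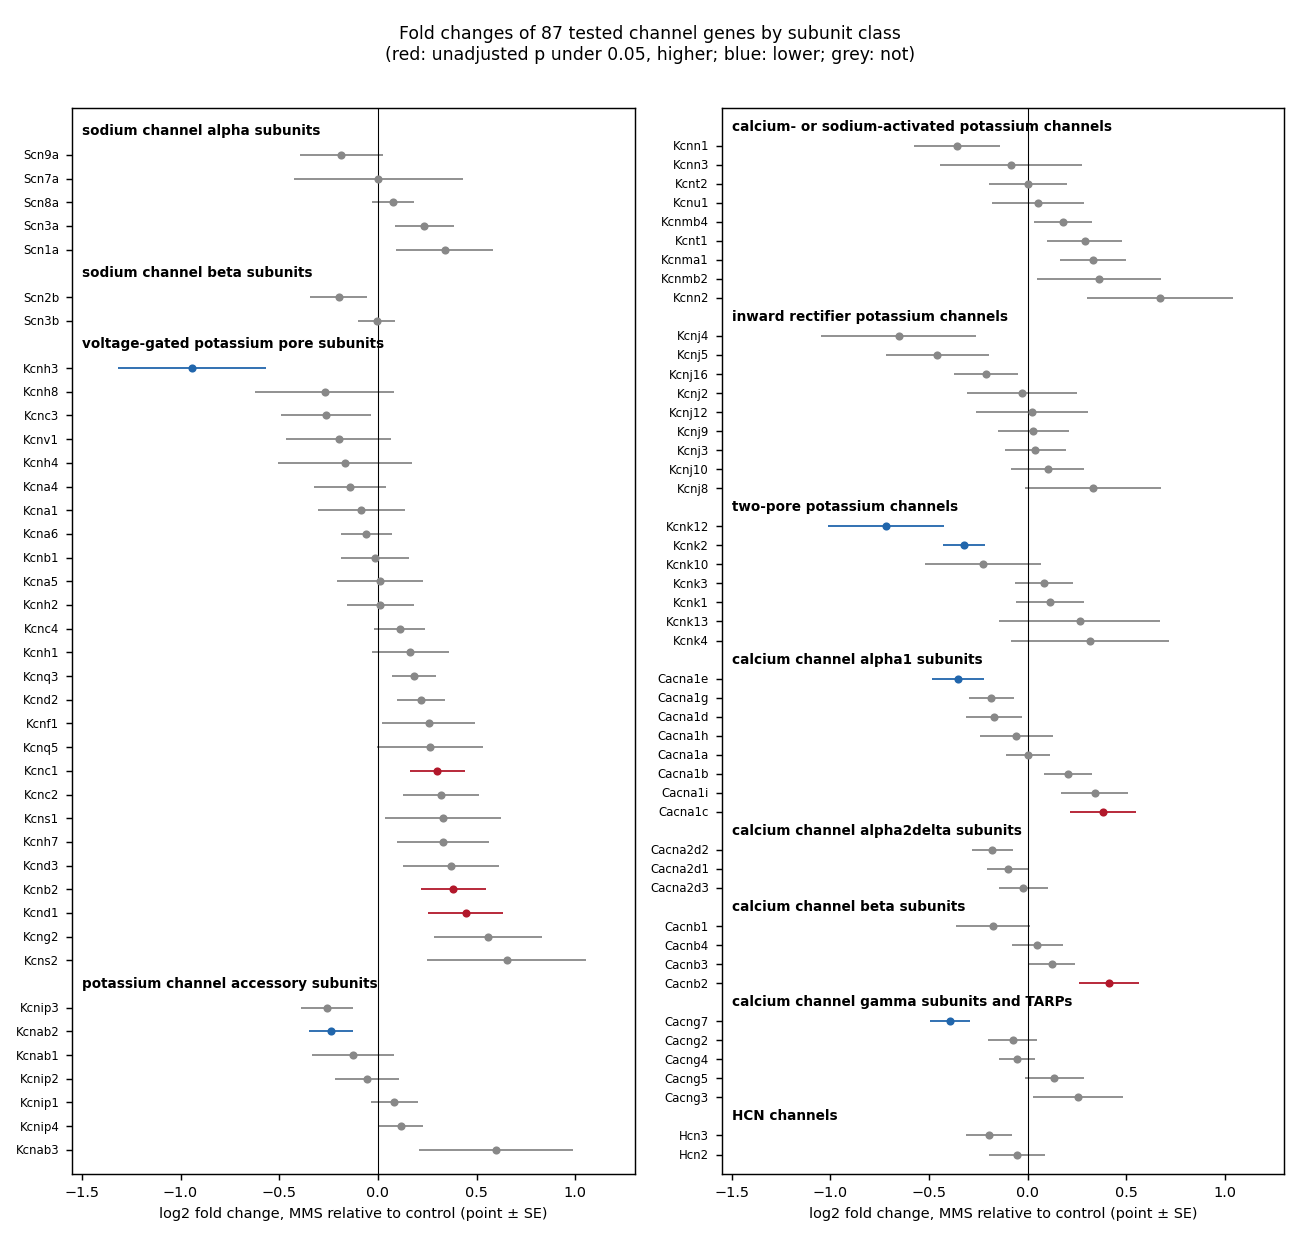
Log2 fold change of 87 of the 91 tested channel genes, MMS relative to control, with its SE, in 12 subunit classes (6 libraries per group). Red and blue points are the 5 higher and 6 lower of these genes at an unadjusted p under 0.05 in edgeR, and grey points are the others. The coloured points are spread over 6 of the classes, with 4 of them among the voltage-gated potassium pore subunits.

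In 3 of the 91 genes all MMS libraries lay below all controls, and in 0 did they all lie above. Over all genes tested the shares were 0.259% and 0.130%. The 3 genes were Cacng7, Kcnk2 and Kcnab2. Cacng7 encodes the TARP gamma-7, an auxiliary subunit of AMPA receptors (7:3332955-3368221, plus strand, a protein-coding gene as are the others placed here, in GENCODE M21 on build mm10). It measured 127, 124, 119, 134, 124 and 101 CPM in Control 1 to Control 6 and 93.4, 81.4, 97.5, 82.3, 101 and 99.8 CPM in MMS 1 to MMS 6. All controls but Control 6 were at least 119 CPM, and Control 6 and MMS 5 were level when rounded. The means were 121 ± 11 and 92.5 ± 8.64 CPM (SD, n = 6 per group), a log2 fold change of -0.39 (SE 0.10, and in edgeR an adjusted p of 0.415). The lowest MMS values were those of MMS 2 and MMS 4, and without these libraries the log2 fold change was -0.31. Leaving out any 1 library gave -0.43 to -0.35.

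Kcnk2 encodes TREK-1, a two-pore background potassium channel that responds to stretch, temperature and fatty acids (1:189207930-189402273, minus strand). Its values were 79.4, 63.6, 65.6, 62.1, 64.3 and 71.2 CPM in the controls and 48.9, 55.3, 53.6, 60.8, 48.6 and 57.6 CPM in the MMS libraries, in the order of their numbers. The gap between the groups was narrow, from 60.8 CPM in MMS 4 to 62.1 CPM in Control 4. Means of 67.7 ± 6.54 and 54.2 ± 4.82 CPM (SD, n = 6 per group) gave a log2 fold change of -0.32 (SE 0.11, and in edgeR an adjusted p of 0.543). MMS 2 and MMS 4 were not among its lowest libraries, and without them the log2 fold change was -0.37.

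Kcnab2 encodes a beta subunit that binds the inner face of Kv1 channels (4:152390742-152477871, minus strand). Controls ran from 37.7 CPM (Control 1) through a median of 41.7 to 46.8 CPM (Control 6), and MMS libraries from 32.2 CPM (MMS 2) through 36.0 to 37.2 CPM (MMS 3). The groups came within 1 CPM of each other. The means of 41.9 ± 3.59 and 35.4 ± 1.97 CPM (SD, n = 6 per group) gave a log2 fold change of -0.24 (SE 0.11, and in edgeR an adjusted p of 0.544), and without MMS 2 and MMS 4 it was -0.22. In the annotation Kcnab2 overlaps Nphp4 and the predicted gene Gm16333 on the opposite strand and the predicted gene Gm16334 on its own. On the opposite strand Kcnk2 overlaps A430027H14Rik, Kcnh3 overlaps Mcrs1 and Cacna1c overlaps Dcp1b. How the counting treated strand is not given in the sources used here, so reads of these genes may have been shared. Of the 91 tested genes, 44 overlap another gene in GENCODE M21, counting only protein-coding genes and the main types of long noncoding RNA.

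The promoters of these 3 genes are shown because no other channel gene had groups without overlap. Each is the RefSeq window of build GRCm38.p6 from 250 bases before to 50 after the annotated start, given 5' to 3' on the strand of the gene. For Kcnk2 and Kcnab2, which have several annotated starts, the window of the start farthest upstream was taken. Capitals mark the GC box (GGGCGG, either strand), the motif known for binding Sp1.
Cacng7, chr7:3332575-3332874, plus strand: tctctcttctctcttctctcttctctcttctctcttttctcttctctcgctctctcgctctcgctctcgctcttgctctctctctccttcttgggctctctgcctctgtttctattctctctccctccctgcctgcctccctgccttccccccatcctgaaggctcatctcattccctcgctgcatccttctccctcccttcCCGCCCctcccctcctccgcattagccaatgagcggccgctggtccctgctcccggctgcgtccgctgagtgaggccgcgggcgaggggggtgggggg
Kcnk2, chr1:189402224-189402523, minus strand: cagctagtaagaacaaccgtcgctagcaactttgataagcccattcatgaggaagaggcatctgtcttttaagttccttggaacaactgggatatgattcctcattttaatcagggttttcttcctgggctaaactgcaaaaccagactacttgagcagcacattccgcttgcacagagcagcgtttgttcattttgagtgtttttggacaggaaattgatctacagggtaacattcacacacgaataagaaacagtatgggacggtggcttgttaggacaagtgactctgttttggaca
Kcnab2, chr4:152477500-152477799, minus strand: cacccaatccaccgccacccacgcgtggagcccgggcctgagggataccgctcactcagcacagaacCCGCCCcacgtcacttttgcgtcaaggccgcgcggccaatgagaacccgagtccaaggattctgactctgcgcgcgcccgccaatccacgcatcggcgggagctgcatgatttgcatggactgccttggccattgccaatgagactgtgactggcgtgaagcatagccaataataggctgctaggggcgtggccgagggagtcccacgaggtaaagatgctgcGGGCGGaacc
The window of Cacng7 held 1 GC box and 15 CpG, that of Kcnab2 held 2 and 25, and that of Kcnk2 held 0 and 6, with a GC content of 62.0%, 62.7% and 43.0%. A GC box was found in 57 of 118 windows of the channel genes (48.3%) and in 35.7% of all 32851 windows. The median window of a channel gene had a GC content of 59.7% and 10 CpG, against 52.7% and 7 over all windows. Searched on both strands, the cyclic AMP response element (TGACGTCA) was found in 0 channel windows and 1.79% of all and the AP-1 motif (TGANTCA) in 4 (3.39%) and 7.81%. RefSeq windows were found for 84 of the 117 genes. A match says only that the letters are there.

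Among sodium channels, 6 alpha subunits, which form the pore, were tested. Of these 5 had a positive log2 fold change, that of Scn7a only just (0.003, with control and MMS means of 2.34 and 2.29 CPM). The median log2 fold change of 0.16 became 0.006 without MMS 2 and MMS 4, with 3 of the 6 positive. Of the 6, 1 was at an unadjusted p under 0.05. Among these 6, Scn3a, which encodes Nav1.3, a channel typical of the developing brain, had the highest level. Controls measured 136 to 191 CPM (median 156), MMS 2 and MMS 4 measured 262 and 244 CPM, and the other 4 MMS libraries 135 to 167 CPM. A log2 fold change of 0.24 (SE 0.15) became -0.05 without MMS 2 and MMS 4. Scn2a1, the older symbol of the gene for Nav1.2, has a form that the symbol rule did not take and was read separately, with the partner genes. Controls averaged 200 ± 17.9 CPM and MMS libraries 213 ± 47.1 CPM (SD, n = 6 per group), with its highest value, 293 CPM, in MMS 2. Its control mean was above every control value of Scn3a. Scn8a, which encodes Nav1.6, the main channel of the mature axon initial segment, had a log2 fold change of 0.08 (SE 0.11). Scn1a (0.34, SE 0.24) and Scn9a (-0.19, SE 0.21), the genes of Nav1.1 and Nav1.7, were low, with control means of 13.7 and 23.0 CPM.

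The 3 beta subunits tested, single-span proteins that tune the gating of the alpha subunits and act in cell adhesion, had a median log2 fold change of -0.14 and 0 at an unadjusted p under 0.05. Scn3b was the most abundant of all the channel genes, at 234 to 265 CPM in controls (median 248) and 225 to 287 CPM in MMS (median 238). The groups overlapped. Scn3b had a log2 fold change close to 0 (-0.01, SE 0.09, edgeR adjusted p = 0.984), with a sign that turned under other fits. Scn2b had a log2 fold change of -0.20 (SE 0.15).

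Voltage-gated potassium pore subunits gave 28 tested genes, 17 higher and 11 lower in MMS, with a median log2 fold change of 0.14. There were 3 higher and 2 lower at an unadjusted p under 0.05. Kcnd1 encodes Kv4.1, a channel of the rapidly inactivating A-type current (X:7822289-7838280, plus strand). Controls ranged from 7.88 to 11.7 CPM (median 9.33) and MMS libraries from 9.93 to 17.4 CPM (median 13.1), and all controls lay below 4 of the 6 MMS libraries. MMS 4 was its lowest MMS library, and its highest was MMS 6. Its log2 fold change came to 0.44 (SE 0.19; adjusted p = 0.543 in edgeR) over all libraries and to 0.55 without MMS 2 and MMS 4. Of the 6 higher genes it alone kept an unadjusted p under 0.05 without these libraries.

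Kcnb2 encodes Kv2.2, a delayed rectifier (1:15287254-15723750, plus strand). Controls ran from 21.9 to 32.9 CPM (median 27.0) and MMS libraries from 26.0 to 49.2 CPM (median 34.1). It was highest in MMS 2 (49.2 CPM) and next in MMS 4 (41.0 CPM), and 3 MMS libraries lay above all controls. Over all libraries this was a log2 fold change of 0.38 (SE 0.16), which was 0.18 without these 2 libraries. Kcnc1, the gene of Kv3.1, which lets neurons fire at high rates (7:46396497-46438704, plus strand), ran from 40.8 to 56.0 CPM in controls (median 50.5) and from 50.9 to 89.5 CPM in MMS (median 55.2). MMS 2 stood alone at 89.5 CPM, with MMS 4 next at 61.7 CPM. For Kcnc1 the log2 fold change was 0.30 (SE 0.14) and 0.12 without MMS 2 and MMS 4. Kcng2, which encodes a silent subunit that needs a partner to form a channel, had a log2 fold change of 0.56 (SE 0.27), with 3.58 to 5.73 CPM in controls, 4.19 to 12.1 CPM in MMS and its highest value in MMS 4. It became 0.32 without MMS 4 and 0.29 without MMS 2 and MMS 4.

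On the lower side was Kcnh3, a scarce transcript. It encodes the ether-a-go-go family channel Kv12.2 (15:99224861-99242817, plus strand) and had 212 counts in all. It ran from 2.53 to 6.94 CPM in controls (median 4.91) and from 0.537 (MMS 2) to 3.86 CPM in MMS (median 2.63), and 3 MMS libraries lay below all controls. Its log2 fold change of -0.94 (SE 0.37) was the lowest of the 91 and became -0.59 without MMS 2 and MMS 4.

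Abundant members of the class showed smaller differences. Those with control means over 100 CPM included Kcna6, Kcnc4, Kcnd2 and Kcnq3, and their log2 fold changes were -0.06 (SE 0.13), 0.11 (SE 0.13), 0.22 (SE 0.12) and 0.18 (SE 0.11).

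**Figure D2:**
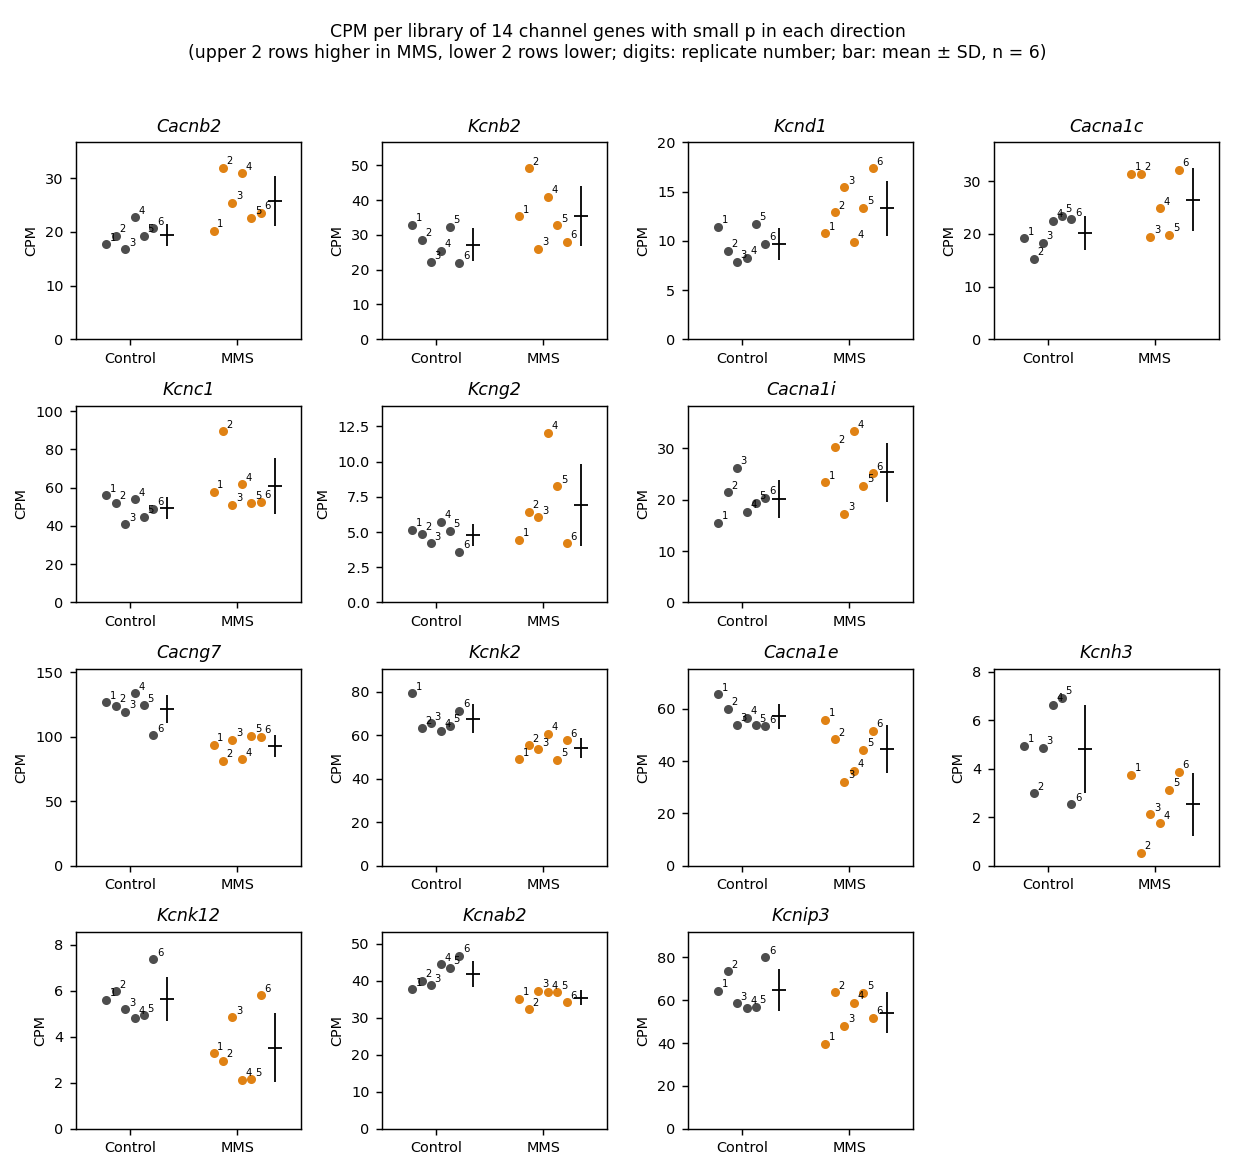
CPM in each library of 14 channel genes with small p in the test between the groups, 7 higher in MMS (upper panels) and 7 lower (lower panels), with the mean ± SD beside each group (n = 6). The digits are replicate numbers, so that the high values of MMS 2 and MMS 4 in Cacnb2 and Kcnb2 can be seen, as can the narrow gaps between the groups in Cacng7, Kcnk2 and Kcnab2.

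Of 7 accessory subunits of potassium channels tested, 3 were higher and 4 lower, with a median log2 fold change of -0.05, and Kcnab2 alone was at an unadjusted p under 0.05. Kcnip1 and Kcnip3 encode KChIPs, calcium-binding proteins that attach to Kv4 channels, and Kcnip3 is also known as the transcriptional repressor DREAM. Kcnip3 (2:127456498-127522094, minus strand) ran from 56.4 to 80.1 CPM in controls (median 61.5) and from 39.6 (MMS 1) to 63.7 CPM in MMS (median 55.3). Its log2 fold change was -0.26 (SE 0.13), and it was -0.35 without MMS 2 and MMS 4, whose values of 63.7 and 58.7 CPM lay within the controls. Kcnip1 was the most abundant of the class, with 85.7 to 123 CPM in controls, 99.0 to 141 CPM in MMS and a log2 fold change of 0.08 (SE 0.12). It overlaps Kcnmb1, another of the channel genes, on the opposite strand.

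The class named calcium- or sodium-activated potassium channels also held Kcnu1, placed there by family alone, and the accessory subunits Kcnmb2 and Kcnmb4. Of its 9 tested genes, 7 were higher in MMS and the median log2 fold change was 0.18, with 0 at an unadjusted p under 0.05. Kcnma1, the pore of the BK channel, which opens to voltage and calcium together, led the class at 30.9 to 55.7 CPM in controls (median 41.2) and 41.5 to 79.2 CPM in MMS (median 47.3). MMS 2 (79.2 CPM) and MMS 4 (57.1 CPM) were the highest libraries. Kcnma1 had a log2 fold change of 0.33 (SE 0.17), and of 0.11 without them. Kcnn2, which encodes the small-conductance channel SK2, had 11.6 CPM in MMS 2 and 12.9 CPM in MMS 4, against 2.68 to 5.16 CPM in controls and 1.82 to 6.79 CPM in the other MMS libraries. The class median was 0.007 without these 2 libraries.

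The 9 inward rectifiers tested had a median log2 fold change of 0.02, 5 higher and 4 lower, and 0 at an unadjusted p under 0.05. Kcnj16 and Kcnj10, whose products Kir5.1 and Kir4.1 join in the channel by which astrocytes take up potassium, were the most abundant. Kcnj16 ran from 48.1 to 85.1 CPM in controls (median 62.0) and from 39.5 to 75.9 CPM in MMS (median 49.4), with a log2 fold change of -0.21 (SE 0.16). Kcnj10 had a log2 fold change of 0.10 (SE 0.18) and its highest value, 90.5 CPM, in MMS 4, where astrocyte markers summed to 1941 CPM, the most of any library. The part of the astrocyte share in it was not tested. Of 7 two-pore channels tested, 4 were higher and 3 lower, and the median was 0.08. Besides Kcnk2, Kcnk12, the gene of THIK-2 (17:87745801-87797994, minus strand), was lower at an unadjusted p under 0.05. It had 249 counts in all, with 4.81 to 7.37 CPM in controls (median 5.40) and 2.13 to 5.80 CPM in MMS (median 3.12). There 4 MMS libraries lay below all controls, and the log2 fold change was -0.72 (SE 0.29), or -0.52 without MMS 2 and MMS 4.

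The alpha1 subunits form the calcium pore. Of 8 tested, 3 were higher and 5 lower, with a median log2 fold change of -0.03, and 1 in each direction was at an unadjusted p under 0.05. Cacna1e encodes Cav2.3, the R-type channel (1:154390731-154884501, minus strand). It ran from 53.3 to 65.7 CPM in controls (median 55.3) and from 32.1 to 56.0 CPM in MMS (median 46.3). All MMS libraries but MMS 1 lay below all controls, and the lowest were MMS 3 (32.1 CPM) and MMS 4 (36.4 CPM). Over all libraries its log2 fold change was -0.35 (SE 0.13, with an edgeR adjusted p of 0.543), and it was -0.31 without MMS 2 and MMS 4.

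Cacna1c, which encodes Cav1.2, the main L-type channel of brain and heart (6:118587240-119196418, minus strand), was on the higher side. Its controls ran from 15.2 to 23.4 CPM (median 20.8) and its MMS libraries from 19.4 to 32.2 CPM (median 28.1). MMS 1, MMS 2 and MMS 6 were between 31.4 and 32.2 CPM, MMS 4 was at 24.8 CPM, and MMS 3 and MMS 5 lay within the controls. The difference, a log2 fold change of 0.38 (SE 0.17), was 0.34 without MMS 2 and MMS 4. Cacna1d, the gene of Cav1.3, the other L-type channel of neurons, had a log2 fold change of -0.17 (SE 0.14). Cacna1i, the T-type channel Cav3.3, had a log2 fold change of 0.34 (SE 0.17), from 15.5 to 26.2 CPM in controls and 17.3 to 33.3 CPM in MMS, with its highest values in MMS 4 and MMS 2, and it was 0.14 without them. The other T-type genes were at -0.19 (SE 0.11) for Cacna1g and -0.06 (SE 0.19) for Cacna1h. The channels of the presynaptic terminal, Cacna1b (N-type) and Cacna1a (P/Q-type), were the most abundant alpha1 subunits. Their control means were 99.9 and 90.0 CPM, with log2 fold changes of 0.20 (SE 0.12) and -0.0002 (SE 0.11).

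Beta subunits bind the inner face of the calcium pore and bring it to the membrane. All 4 were tested and their median log2 fold change was 0.09. Cacnb2 (2:14603088-14987908, plus strand) ran from 16.8 to 22.7 CPM in controls (median 19.3) and from 20.1 to 32.0 CPM in MMS (median 24.5). MMS 2 (32.0 CPM), MMS 4 (30.9 CPM), MMS 3 and MMS 6 lay above all controls. Its log2 fold change was 0.41 (SE 0.15, with an edgeR adjusted p of 0.543), with the smallest p of the genes higher in MMS, and it was 0.24 without MMS 2 and MMS 4. Cacnb1, the most abundant beta subunit, was split in the opposite sense. MMS 2 and MMS 4 measured 96.2 and 106 CPM, the other MMS libraries 184 to 248 CPM and the controls 170 to 217 CPM. The overall value of -0.18 (log2, SE 0.19) turned to 0.10 without these libraries.

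The 3 alpha2delta subunits tested, extracellular proteins that raise the surface density of calcium channels and bind gabapentin-type drugs, had a median log2 fold change of -0.10. Cacna2d2 and Cacna2d1 were among the most abundant of all the channel genes. Cacna2d2 ran from 198 to 271 CPM in controls (median 255) and 187 to 257 CPM in MMS (median 212), with a log2 fold change of -0.18 (SE 0.10). Cacna2d1 and Cacna2d3 were at -0.10 (SE 0.10) and -0.02 (SE 0.12). Besides Cacng7, 4 gamma subunits were tested, all TARPs. Cacng4 was the most abundant, at 164 to 188 CPM in controls and 145 to 195 CPM in MMS (log2 fold change -0.05, SE 0.09), and Cacng2, which encodes stargazin, was at -0.08 (SE 0.12). Cacng3 (0.26, SE 0.23) was at 40.0 CPM in MMS 2 and 37.8 CPM in MMS 4, against 13.0 to 21.4 CPM in the other MMS libraries and 18.5 to 23.0 CPM in controls, and its log2 fold change was -0.23 without these 2 libraries. Of the HCN genes only Hcn3 and Hcn2 were tested. Hcn3 ran from 82.7 to 93.8 CPM in controls (median 91) and from 59.5 to 102 CPM in MMS (median 79.2). MMS 6 was its highest library and the other 5 MMS libraries lay below all controls, with a log2 fold change of -0.20 (SE 0.12). Hcn2 was at -0.05 (SE 0.14).

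Levels were also summed over the genes of each class. Voltage-gated potassium pore subunits summed to 1125 ± 68.2 CPM in controls and 1196 ± 51.8 CPM in MMS (SD, n = 6 per group). Calcium alpha1 subunits summed to 428 ± 28.1 and 428 ± 48.0 CPM, an equal total in which Cacna1e was on the lower side and Cacna1c on the higher. Sodium alpha subunits summed to 308 ± 26.5 and 347 ± 62.2 CPM. This sum is without Scn2a1, which the symbol rule did not take and which alone averaged 200 and 213 CPM. MMS 2 was at 444 CPM and MMS 4 at 389 CPM. The other 4 MMS libraries (286 to 360 CPM) overlapped the controls (283 to 343 CPM). Alpha2delta subunits summed to 529 ± 29.7 and 485 ± 26.2 CPM, and gamma subunits and TARPs to 439 ± 27.8 and 406 ± 24.3 CPM. In these 12 sums the groups overlapped.

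**Figure D3:**
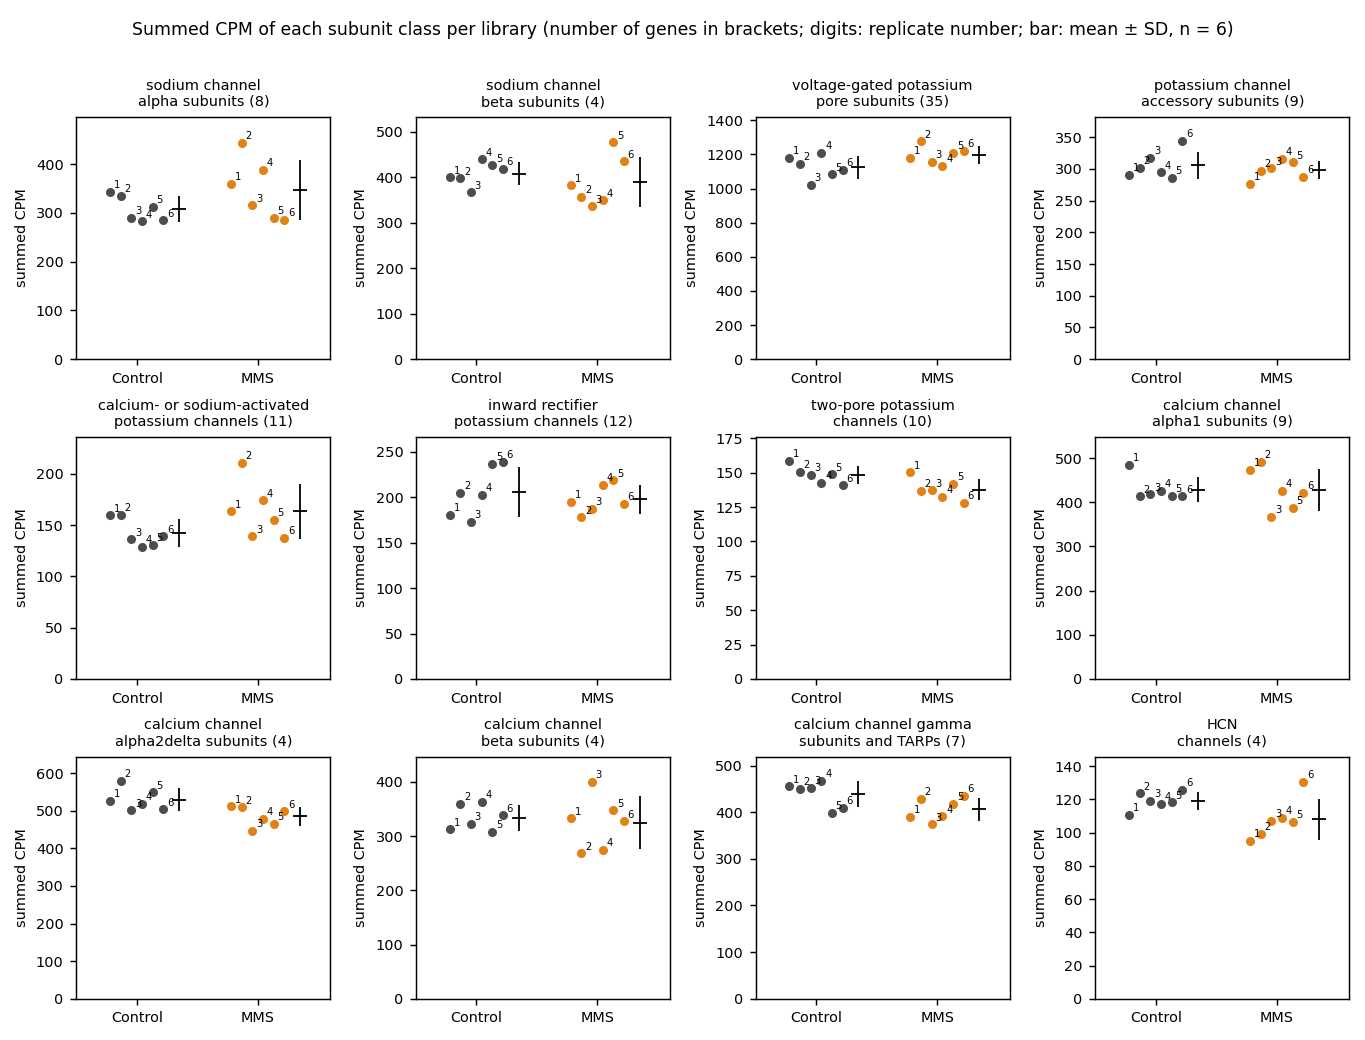
Summed CPM of the genes of each of the 12 subunit classes in each library, with the mean ± SD of each group (n = 6) and the number of genes in brackets. The groups overlap in every panel, and MMS 2 is the highest library for sodium alpha subunits (444 CPM) and the lowest for calcium beta subunits (268 CPM). The sodium alpha subunits are summed without Scn2a1.

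The 2 libraries with low sums of neuronal and ciliary markers held the extremes of many genes, channels or not. MMS 2 held the highest value of 19 of the 91 channel genes (20.9%, against 15.5% of all genes tested) and the lowest of 7 (7.69% against 16.7%). MMS 4 held the highest value of 10 (11% against 14%) and the lowest of 13 (14.3% against 12.5%). The genes where both lay above all the other libraries included Scn3a, Kcnd3, Kcnq5, Kcnn2 and Cacng3, and in Cacnb1 both lay below. Kcnd3, a further A-type channel, measured 65.0 and 60.1 CPM in them against 20.6 to 40.0 CPM in all others. Without both libraries the log2 fold change changed sign in 22 of the 91 channel genes (24.2%, against 27.1% of all genes tested), and 10 of the 22 had been over 0.2 in size. Kcnd3 went from 0.37 to -0.11, Kcns1 from 0.33 to -0.09 and Kcnq5 from 0.26 to -0.27. Scn1a, Kcnd2, Kcnq3 and Cacna1b kept their sign at 0.12, 0.13, 0.08 and 0.10. Among class medians, those of the accessory subunits (0.01), inward rectifiers (-0.05) and two-pore channels (-0.04) turned without both libraries. The median of the sodium beta subunits was then -0.002, that of voltage-gated potassium pores 0.09, that of calcium alpha1 subunits -0.10 and that of gamma subunits and TARPs -0.17. The part of the makeup of these libraries in the fold changes was not tested. Without them Kcnd1 and Kcnab3 were the higher genes at an unadjusted p under 0.05, and Cacng7, Kcnk2, Cacna1e and Kcnip3 the lower.

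**Figure D4:**
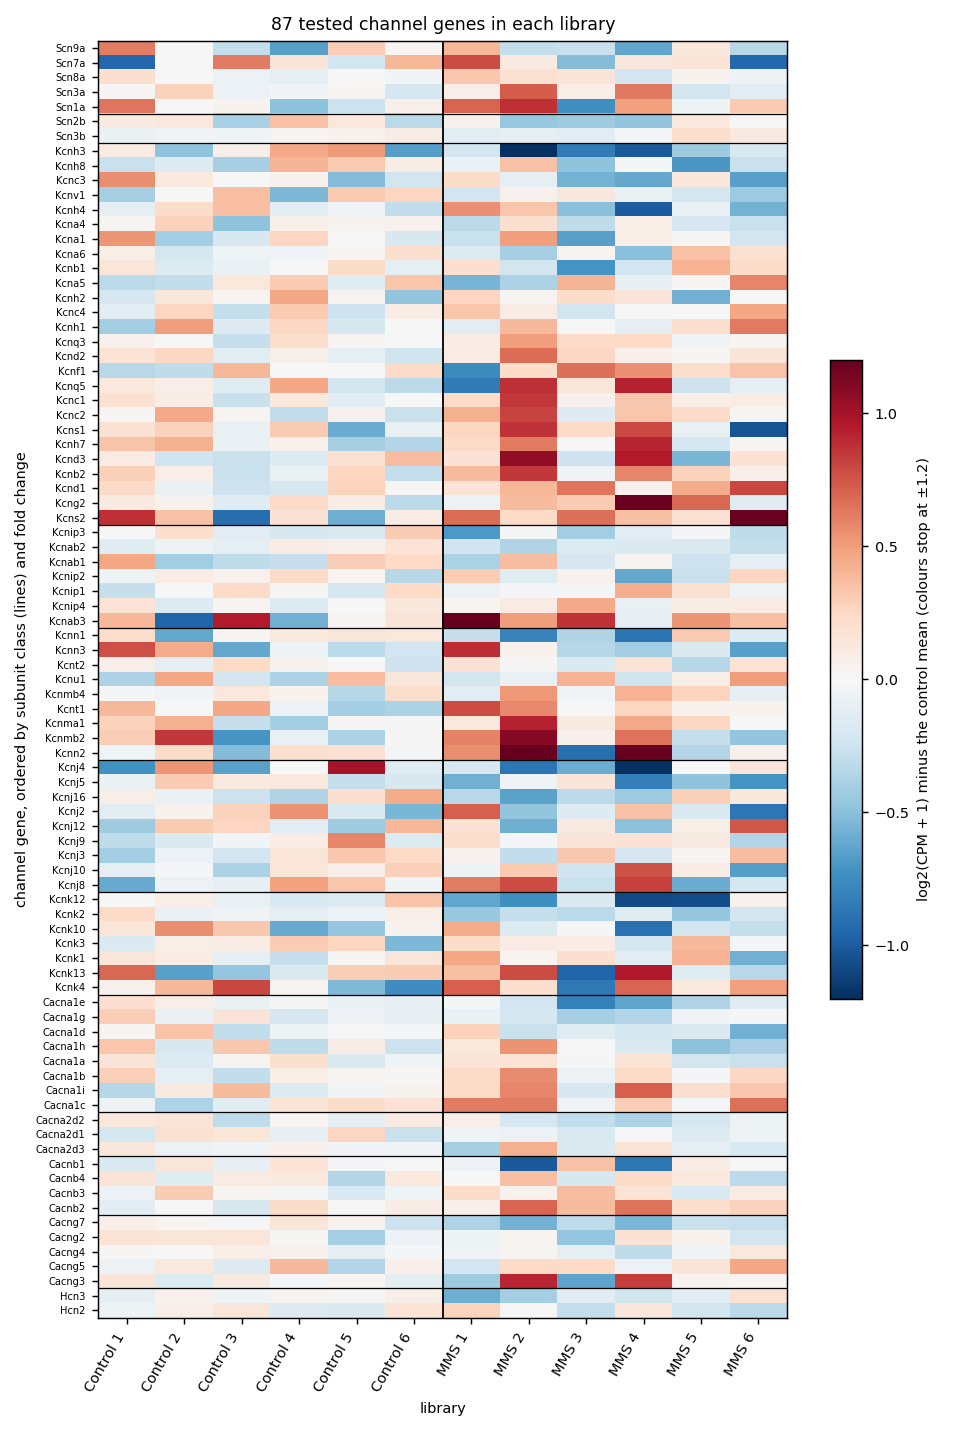
Values of 87 of the 91 tested channel genes in each of the 12 libraries as log2(CPM + 1) less the mean of the controls, red above it and blue below, ordered by subunit class and fold change. The columns of MMS 2 and MMS 4 hold many of the deepest colours, red in Kcnd3 and Kcnn2 and blue in Cacnb1.

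**Figure D5:**
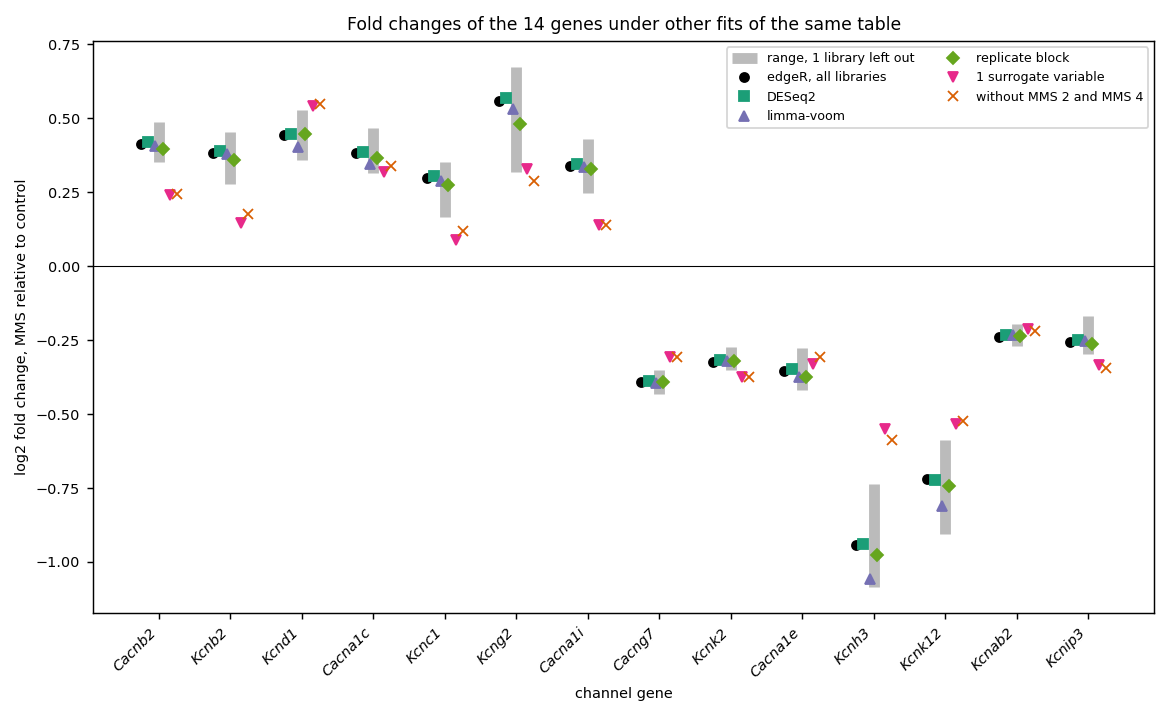
Log2 fold change, MMS relative to control, of the same 14 genes with small p under 6 fits, with the range over the 12 fits that left out 1 library in grey. Every sign stays the same, Kcnb2 goes from 0.38 to 0.18 without MMS 2 and MMS 4, and Kcnk2 and Kcnd1 move away from 0 there.

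The 26 genes that did not pass the count filter had 10 to 117 counts over all libraries. They included Cacna1s, Cacna2d4, Cacng1, Cacng6, Hcn4, Kcna2, Kcne2, Kcne4, Kcng1, Kcng4, Kcnh5, Kcnh6, Kcnj6, Kcnj13, Kcnj14, Kcnk5, Kcnk6, Kcnk7, Kcnmb1, Kcnn4, Kcnq1, Kcns3, Scn4b, Scn10a and Scn11a. By an exact permutation test of CPM over the 12 libraries (two-sided) 0 of them had a p under 0.05, and the smallest was 0.0541 for Cacng6, a relative of the gamma subunit of skeletal muscle, with 14 counts in controls and 3 in MMS. Hcn4, the pacemaker channel of the heart, had 22 and 44 counts, and Kcnj6, the G-protein-gated channel Kir3.2, had 22 and 39, each with an exact permutation p of 0.0649. Kcne2, known from the choroid plexus, was highest in Control 3, at 3.86 CPM on 23 counts, where choroid plexus markers were high. It was next in MMS 5, at 1.96 CPM on 10 counts, where the choroid plexus markers summed to 29.8 CPM. Kcnj13, also known from that tissue, was at 2.01 CPM in Control 3 but at 2.11 CPM in Control 6, where these markers summed to 33.9 CPM. A further 18 symbols, among them Kcna3, Kcnj11 and Scn4a, had at most 6 counts over all libraries, too few to compare.

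A list of 40 partners of these channels was read in the same fit, with proteins that anchor, tune or inactivate them. Of 35 tested, 24 were higher and 11 lower, the median log2 fold change was 0.08, and 6 of the 35 were at an unadjusted p under 0.05 (all genes 9.08%), of which 0 passed an adjusted p of 0.05. Of these 6, 3 encode fibroblast growth factor homologous factors, which stay in the cell and bind the tail of sodium channels to set their inactivation. Fgf11 ran from 15.8 to 24.5 CPM in controls (median 17.3) and 10.7 to 15.1 CPM in MMS (median 13.3). Its groups did not overlap, and the log2 fold change was -0.50 (SE 0.16; adjusted p = 0.543 in edgeR), or -0.41 without MMS 2 and MMS 4.

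Fgf14 and Fgf12 were on the higher side. Fgf14 ran from 12.9 to 19.6 CPM in controls (median 15) and from 16.9 to 28.2 CPM in MMS (median 22.8), a log2 fold change of 0.51 (SE 0.18), and MMS 2, MMS 3 and MMS 4 lay above all controls. It was 0.34 without MMS 2 and MMS 4. Fgf12 was at 77.1 CPM in MMS 2 and 77.9 CPM in MMS 4, and at 45.4 to 46.9 CPM in the other MMS libraries, within the controls at 38.3 to 51.2 CPM. A log2 fold change of 0.41 (SE 0.15) was 0.11 without these 2 libraries. Fgf13 was at 0.26 (SE 0.15). Sptbn4, the spectrin that holds channels at the axon initial segment, had a log2 fold change of -0.37 (SE 0.17), from 16.6 to 28.6 CPM in controls and 12.7 to 22 CPM in MMS, and it was -0.51 without MMS 2 and MMS 4. Stac2, an adaptor of L-type channels, was at 0.71 (SE 0.29) on 227 counts.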

How the data were processed

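The libraries were made with a QuantSeq 3' kit. The authors sequenced them on an Ion Proton instrument, aligned the reads to mm10 and deposited raw gene counts, a column for each library, neither normalized nor pooled. Which program counted the reads, with which annotation, and how it handled strand and multiple matches is not given in the sources used here. Groups and replicate numbers were taken from the sample titles. All 12 libraries were counted as separate samples, since every pair within a group differed by more than counting noise (chi-square per degree of freedom 4.04 to 31.5 over 30 pairs).

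The main test was the edgeR quasi-likelihood F-test (edgeR 4.0.16, R 4.3.3; robust, TMM scaling, default filter at 10 counts and a total of 15), two-sided, with Benjamini-Hochberg adjustment over the 13104 genes that passed. The fit was tested on simulated data, with changes larger in size than any log2 fold change of the tested channel genes. Changes as small as theirs were not simulated. CPM used the same scaling. Genes outside the filter were compared by an exact permutation test of CPM over the 924 splits, which cannot give a p below 0.00216. Alternatives were DESeq2 1.42.0, limma-voom (limma 3.58.1), upper-quartile scaling, other count filters, a replicate block, 1 surrogate variable (sva 3.50.0), leaving out MMS 2 and MMS 4, and leaving out each library. Coordinates are 1-based, from GENCODE M21 on the same build. Promoter windows came from RefSeq.

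The genes named were the 8 with the smallest p in each direction, the most abundant tested gene of each subunit class, genes whose groups did not overlap, and partners at an unadjusted p under 0.05. Some genes that the rule takes are not reported here. Other genes were picked for mention with their values in view. The members, lists and rule were chosen with earlier results of these data known. Of the marker lists not described with the results, those of oligodendrocytes, microglia and vascular cells summed to 782 to 1144, 160 to 222 and 187 to 283 CPM over the libraries.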

Additional observations from a re-analysis of the deposited data

Results flagged for a closer look

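Over 76 sets of 6 libraries, the 14 named genes with the smallest p, the most abundant genes and the class sums among them, a sample far from the rest of its group was found in 2, where chance gives about 1 in 20. Kcnc1 in MMS 2 was at 89.5 CPM, with the nearest MMS library at 61.7 CPM. The calcium alpha1 subunits of Control 1 summed to 485 CPM, with the nearest control at 426 CPM. In MMS 2 and MMS 1 that sum was 492 and 473 CPM.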

How the results depend on the processing

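In 20 alternative fits 0 of the channel genes passed an adjusted p of 0.05, with a smallest adjusted p between 0.069 (DESeq2) and 0.837. Of all genes tested, 7 passed it in DESeq2, 5 without MMS 2 and MMS 4 and 4 with 1 surrogate variable. In each of the other fits at most 1 gene passed. The 13 genes at an unadjusted p under 0.05 became 5 with 1 surrogate variable, which marked MMS 2 and MMS 4 (all genes 5.20%), and 6 without these libraries (5.03%). They were 8 to 19 when 1 library was left out, and the share of all genes moved too. The 8 came without Control 6 (all genes 7.63%) or without MMS 2 (5.27%), and the 19 without MMS 5 (13.6%). The other fits gave 10 to 15, of 65 to 117 genes (all genes 8.66% to 10.2%). The median over the channel genes lay between -0.04 and 0.05 in all fits. The 14 named genes with the smallest p kept their sign in all fits that tested them. Signs turned in other genes, some of them near 0. Scn3a was -0.081 with the surrogate variable and -0.049 without MMS 2 and MMS 4. In the same 2 fits Scn3b was 0.036 and 0.025 and Cacnb1 was 0.11 and 0.10. Scn3b was 0.0051 without the count filter. Leaving out 1 library took Scn3b from -0.045 to 0.029 and Cacng4 from -0.093 to 0.00026. The deviations of same-numbered libraries had correlations of -0.05 to 0.12 over 6 pairs, the own number the best match in 2. Such correlations over all genes cannot show which libraries share a litter. Whether the numbers mark littermates is therefore not known. With the replicate block 11 genes were at an unadjusted p under 0.05 (all genes 9.34%) and 0 passed the adjusted one. Genes with few counts, such as Kcnh3 with 212, are limited by depth.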
